A study of Homo sapiens with 42 samples.

Results

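GATA2, on the long arm of chromosome 3, encodes a zinc finger transcription factor of blood stem and progenitor cells. The stretch of chromosome 3 between 128 Mb and 129 Mb of GRCh38 holds GATA2 (chr3:128479422-128493201), RPN1 (chr3:128619969-128650818) and RAB7A (chr3:128726183-128814798). The study's loop list pairs anchors of 10 kb each on a chromosome, and a loop was taken as one of the GATA2 locus when at least 1 of its anchors started in this stretch. The rule found 15 loops, of 3111 on chromosome 3 and 33914 in all. It used positions only, not contact counts.

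The contacts come from in situ Hi-C, in which neighbouring ends of cut DNA are joined inside crosslinked nuclei and sequenced as pairs. Wild-type K562 cells, an established human leukemia line with erythroid and megakaryocytic potential, were differentiated toward a megakaryocyte-like state with 25 nM phorbol ester (PMA), with fresh medium on the way. Libraries were made at 0 h, 6 h and 72 h, with 14 samples (technical replicates and sequencing runs) of 4 biological replicates at each time. The labels give the 0 h group the same treatment entry as the others, with a time of 0 h. Whether the biological replicates came from separate cultures is not stated, so p-values measure only the spread between these samples. All samples come from 1 cell line, and its identity could not be checked against marker genes because the assay measures DNA contacts and no RNA.

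Loops bring distant stretches of DNA together, commonly where the protein CTCF halts the ring-shaped cohesin complex, and they can set an enhancer beside the gene it drives. GATA2 itself is transcribed from an upstream and a downstream start site, is active in progenitor cells, and gives way to its relative GATA1 as erythroid cells mature. Between GATA2 and RPN1 lies a distal enhancer of GATA2 that some leukemias move next to the oncogene MECOM. RPN1 encodes ribophorin I, a subunit of the enzyme complex that attaches sugars to nascent proteins, and RAB7A encodes a small GTPase that steers late endosomes to lysosomes.

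Exactly 1 of the 15 loops had an anchor on GATA2. This loop, loop7006 in the deposited table, joined chr3:128420001-128430000 at the end of EEFSEC, the gene for the elongation factor that delivers selenocysteine, to chr3:128490001-128500000, and the anchors lay 70 kb apart. The GATA2 anchor held the upstream of the 2 start sites that RefSeq lists for the gene, and it lay within GATA2-AS1, a noncoding gene that overlaps GATA2. The downstream start of GATA2 lay in no anchor of the 15 loops. The sequences of both are shown because this anchor is where the loop data touch the gene; they are the 250 bases before each start (RefSeq, GRCh38.p14, minus strand, 5′ to 3′), with matches to a core of the CTCF motif in capitals.
GATA2 upstream start, chr3:128493202-128493451: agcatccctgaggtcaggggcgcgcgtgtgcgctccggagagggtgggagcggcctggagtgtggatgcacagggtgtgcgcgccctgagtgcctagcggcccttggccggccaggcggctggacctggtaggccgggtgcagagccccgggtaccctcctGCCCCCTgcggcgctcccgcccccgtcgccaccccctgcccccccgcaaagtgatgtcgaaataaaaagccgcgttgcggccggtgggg
GATA2 downstream start, chr3:128488531-128488780: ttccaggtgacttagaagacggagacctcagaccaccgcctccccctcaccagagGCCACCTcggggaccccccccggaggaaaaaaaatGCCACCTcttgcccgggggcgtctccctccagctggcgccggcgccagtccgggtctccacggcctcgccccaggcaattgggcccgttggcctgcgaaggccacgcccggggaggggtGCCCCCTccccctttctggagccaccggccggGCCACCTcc

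Both strands were searched. The CTCF core was spelled AG, then A or G, then G or T, then GGC. The word for GATA factors was GATA preceded by A or T and followed by A or G, and that for AP-1, a factor activated by phorbol esters, was TGA, then C or G, then TCA. The upstream start had 1 CTCF core match, at base 162 of the printed strand, and the downstream start had 4, at bases 56, 91, 210 and 242. All 5 match on the strand opposite to the one printed, and no match overlapped another. Neither stretch held a GATA or AP-1 word. Of 35116 RefSeq promoter windows of this length, 26.4% held a CTCF core word, 22.3% a GATA word and 4.2% an AP-1 word, so single matches of this kind are common. Matches describe letters only. The 250 bases before the start of RAB7A held none of these words, nor did those of COPG1, whose start lies in an anchor at the far end of the loops described last.

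**Figure D1:**
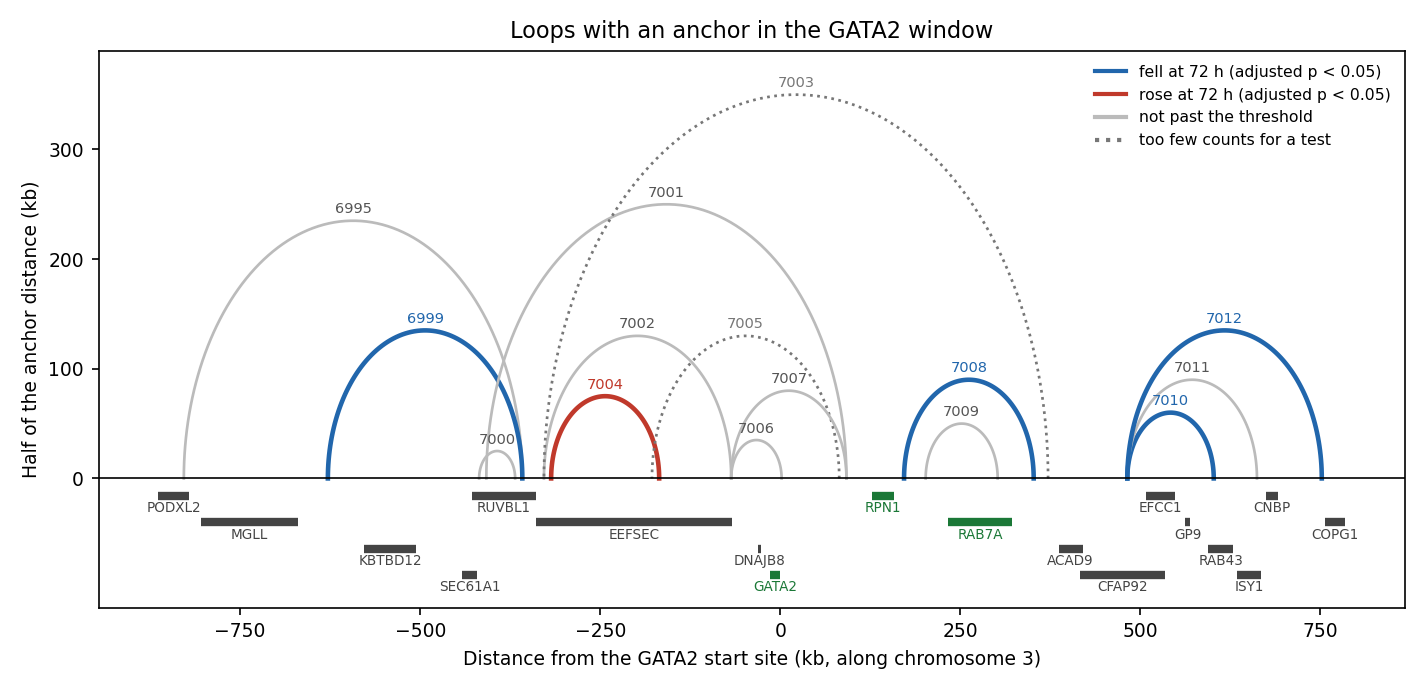
Map of the 15 loops against protein-coding genes. The x axis gives the distance from the upstream GATA2 start in kb along chromosome 3, each arc joins the 2 anchors of a loop, and its height is in proportion to the distance between them. Blue arcs fell and the red arc rose at 72 h (adjusted p under 0.05), grey arcs did not pass the threshold, and dotted arcs (loop7003 and loop7005) had too few counts for a test.

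The loops fell into 4 neighbourhoods. The first lay around RUVBL1, which encodes an ATPase of chromatin-remodelling complexes. There loop6995 and loop6999 ended on the same anchor in RUVBL1. Both anchors of loop7000, 50 kb apart, lay within RUVBL1. The first of them also held the end of SEC61A1, which encodes a channel subunit of the endoplasmic reticulum. From loop7001 to loop7007 the loops lay across EEFSEC and GATA2. Of these, loop7001, loop7003, loop7005 and loop7007 reached over GATA2 without an anchor on it, and loop7007 and loop7001 shared an anchor at chr3:128580001-128590000, which is 86.8 kb from GATA2 and 30 kb from RPN1. Loop7008 and loop7009 lay at RPN1 and RAB7A. Loop7010, loop7011 and loop7012 fanned out from 1 anchor in CFAP92 to RAB43, ISY1 and COPG1, and enclosed GP9, the gene of platelet glycoprotein IX.

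Contact numbers at the locus were small, which sets the precision of everything that follows. All 15 loops together had between 298 and 679 raw contacts per library, out of 736929 to 1472197 contacts in all loops. Of the 15, 13 had enough counts for a test, and loop7003 (4 to 14 raw contacts per library) and loop7005 (3 to 11) did not. By exact Poisson intervals at 95%, 15 raw contacts allow 8.4 to 24.7 and 97 allow 78.7 to 118, which covers counting error only. Values below are normalized counts, contacts per 1000000 contacts in tested loops after TMM scaling. Set against each other by chi-square over all loops, replicates 3 and 4 did not differ detectably beyond sampling noise at 0 h (p = 0.0591) and at 72 h (p = 0.489), and did at 6 h (p = 0.0327). There they count as 1 sample in each mean ± SD, which leaves n = 3 at 0 h and at 72 h and n = 4 at 6 h.

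At 0 h the GATA2 loop stood first in level, at 70.6 ± 6.17 (SD, n = 3). Over the 12 libraries its mean of 64.8 was above that of 81.7% of the tested loops of the genome. At 0 h loop7000 followed with 65.7 ± 17.9, loop7010 with 62.5 ± 5.21, loop7009 with 55.1 ± 2.08 and loop7012 with 48.0 ± 4.64 (SD, n = 3 each). These 5 stood apart from the rest of the locus. After them came loop7007 at 32.1 ± 6.38, loop7008 at 31.5 ± 8.15, loop7011 at 29.0 ± 2.91, loop7004 at 24.3 ± 5.34 and loop7002 at 24.0 ± 3.27. The lowest were loop6999, loop7001, loop6995, loop7003 and loop7005, from 16.7 ± 5.04 down to 8.13 ± 1.25. In this order, the ranges of mean ± 1 SD of neighbours did not overlap at 3 places: between loop7010 and loop7009, between loop7009 and loop7012, and between loop7012 and loop7007. A count holds the contacts that any pair of sites at that distance makes, and short loops have more of these, so the order is not one of loop strength.

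The share of all loop contacts that the 15 loops held was lower at 72 h than at 0 h. It was 47.3 ± 1.81 per 100000 contacts at 0 h (SD, n = 3), 44.5 ± 3.03 at 6 h (n = 4) and 40.1 ± 1.78 at 72 h (n = 3). The 4 libraries of 0 h lay between 46.1 and 52.4 and those of 72 h between 38.1 and 42.7, while those of 6 h, between 40.4 and 46.9, overlapped both. The fall from 0 h to 72 h was -15.2%. No p is attached to this sum, since it runs over loops chosen for this account. Contacts are averaged over many cells, so fewer cells with a loop and a looser loop in each cell cannot be told apart.

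The 6 h comparison asks what changed early. By edgeR's quasi-likelihood test at an adjusted p under 0.05, none of the 13 tested loops changed at 6 h, where 6.41% of all tested loops did. At an unadjusted p under 0.05 there was 1 of 13, loop7008, against 20.3% of all tested loops. DESeq2 without its independent filtering called 0 of 13, beside 1.41% of all tested loops. The median log2 fold change of the 13 was -0.10, beside 0.01 over all tested loops. The libraries of 0 h and 6 h did not overlap for 1 loop, loop7010, which was lower in all 4 libraries of 6 h; this was so for 10.7% of all tested loops in either direction.

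The 72 h comparison asks what differed in the differentiated state. At 72 h, 5 of the 13 tested loops changed (38.5%, beside 33.6% of all tested loops): loop6999, loop7008, loop7010 and loop7012 fell and loop7004 rose. Over all tested loops 16.9% fell and 16.7% rose. The 13 had a median log2 fold change of -0.22, beside 0.01 over all tested loops and 0.03 over the others of chromosome 3. Over the 17540 tested loops of the same range of lengths (50 kb to 500 kb) it was -0.05. Below 0 were 10 of the 13 (76.9%), beside 49% of all tested loops, 47.6% of the others of chromosome 3 and 54.7% of this length range. The share of called loops at the locus, 38.5%, was close to the background of 33.6%. None of the 5 was the loop anchored on GATA2. With DESeq2, 2 of the 13 were called, loop7008 and loop7010, beside 20.6% of all tested loops. Replicates 1 and 2 have more technical replicates than 3 and 4, and the interaction of this split with time was tested in edgeR. It was called for 0 of the 13 at 6 h, beside 0% of all tested loops, and for 0 at 72 h, beside 0.00414%. At an unadjusted p under 0.05 there was 1 of 13 at each time, loop7008 at 6 h (beside 5.57% of all tested loops) and loop7000 at 72 h (beside 6.09%).

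**Figure D2:**
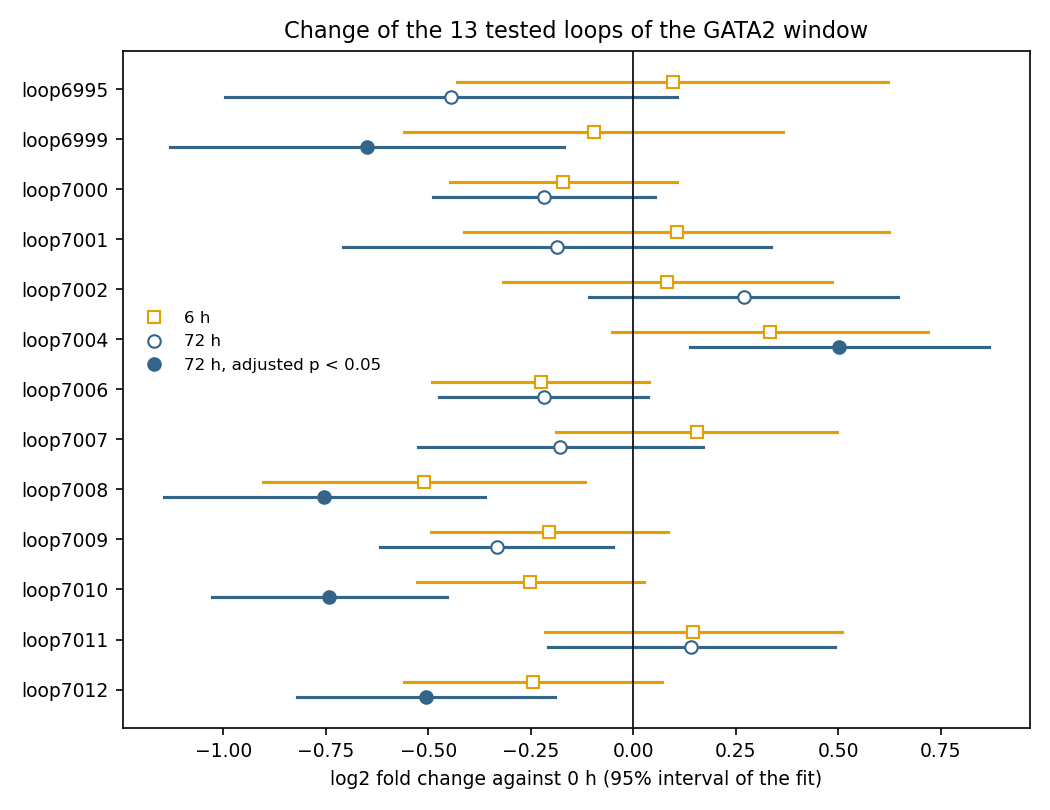
Log2 fold change against 0 h of the 13 tested loops, in their order along chromosome 3, at 6 h (squares) and 72 h (circles), with the 95% interval of the fit as a line. Filled symbols passed an adjusted p of 0.05: 4 loops below 0 and loop7004 above 0, all at 72 h.

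The loop anchored on GATA2 was not called at either time. Loop7006 had 70.3, 64.6, 87.8 and 65.9 normalized contacts in replicates 1 to 4 at 0 h, 62.7, 53.3, 65.1 and 63.9 at 6 h, and 54.0, 59.2, 62.4 and 68.7 at 72 h. Replicate 3 of 0 h was the highest of the 12, and the 3 times overlapped. The log2 fold change was -0.23 ± 0.13 (SE) at 6 h (95% interval -0.49 to 0.04, edgeR adjusted p = 0.342) and -0.22 ± 0.13 at 72 h (-0.47 to 0.04, adjusted p = 0.184), with 0.01 between 72 h and 6 h. A p that misses the threshold does not show that the loop stayed the same, and both intervals lie mostly below 0. Among tested loops outside the locus, 3 had normalized counts that followed those of loop7006 most closely over the 12 libraries. They lay on chromosome 17 (loop30071, r = 0.896), chromosome 11 (loop22392, r = 0.894) and chromosome 9 (loop19412, r = 0.889). These are the highest correlations over all tested loops outside the locus, in libraries that share their depth scaling, and are given as a description.

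The loops that pass over GATA2 without touching it gave no call either. Loop7007, which leaves the same EEFSEC anchor as the GATA2 loop and ends between GATA2 and RPN1, had 39.1, 26.6, 25.1 and 36.4 at 0 h, 41.2, 30.8, 35.4 and 38.6 at 6 h, and 34.5, 27.1, 28.1 and 24.1 at 72 h. Its log2 fold change at 72 h was -0.18 ± 0.18 (95% interval -0.53 to 0.17, edgeR adjusted p = 0.454). The log2 ratio of the GATA2 loop to loop7007 averaged 1.20 at 0 h, 0.75 at 6 h and 1.11 at 72 h. No difference between 72 h and 0 h was detectable (-0.09, two-sided exact permutation test over 4 against 4 libraries, p = 0.771). Loop7001, the longest tested loop at 500 kb, which encloses EEFSEC, the chaperone gene DNAJB8 and GATA2, had 5.69 to 17.6 at 0 h and 9.36 to 11 at 72 h (log2 fold change -0.19 ± 0.26, adjusted p = 0.618). Loop7003, whose 700 kb enclose GATA2, RPN1 and RAB7A together, summed to 38 raw contacts at 0 h, 32 at 6 h and 24 at 72 h, and the exact 95% Poisson intervals of the 0 h and 72 h sums overlap (26.9 to 52.2 and 15.4 to 35.7). Loop7005 summed to 34, 26 and 32. At this depth no change of these enclosing loops was detectable.

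The one loop that rose lay inside EEFSEC, the neighbour of GATA2. Loop7004 joined chr3:128170001-128180000 to chr3:128320001-128330000, both within the gene body. It had 22.5, 30.4, 18.8 and 21.6 normalized contacts at 0 h, 41.2, 33.6, 18.4 and 22.9 at 6 h, and 25.7, 35.1, 39.5 and 37.5 at 72 h. Replicate 1 of 72 h lay within the range of 0 h, and the other 3 lay above all 4 libraries of 0 h. The log2 fold change at 72 h was 0.50 ± 0.18 (SE; edgeR adjusted p = 0.0253), and 0.33 ± 0.20 at 6 h (adjusted p = 0.333). At 72 h it was 0.85 within replicates 3 and 4 (edgeR adjusted p = 0.0136) and 0.19 within 1 and 2 (adjusted p = 0.627), with an uncalled interaction (adjusted p = 0.855). It lost its call without any 1 of 6 libraries (0 h replicates 1, 3 or 4 and 72 h replicates 2, 3 or 4, adjusted p from 0.0532 to 0.0895), without the filter on low counts (0.44, adjusted p = 0.0644) and with DESeq2 (adjusted p = 0.113). Loop7002, which runs from the same part of EEFSEC to the EEFSEC anchor of the GATA2 loop, had 24.0 ± 3.27 at 0 h (SD, n = 3) and 27.8 ± 9.54 at 72 h (n = 3), with a log2 fold change of 0.27 ± 0.19 (adjusted p = 0.278).

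Of the pair of loops at RPN1 and RAB7A, loop7008 fell at 72 h and loop7009 was not called. Loop7008 ran from chr3:128660001-128670000, 9.2 kb from RPN1 on the side away from GATA2, to chr3:128840001-128850000, 25.2 kb beyond RAB7A, and thus enclosed RAB7A whole. It had 23.9, 30.4, 42.7 and 37.5 normalized contacts at 0 h, 27.5, 21.5, 14.2 and 22.9 at 6 h, and 13.3, 18.1, 30.2 and 13.4 at 72 h. At 72 h 3 of the 4 libraries lay below all those of 0 h, and replicate 3 lay within them. At 72 h the log2 fold change was -0.75 ± 0.20 (SE; edgeR adjusted p = 0.0015). At 6 h it was -0.51 ± 0.20 and did not pass (edgeR adjusted p = 0.104). At 72 h the fall was called in all 27 other settings tried, with values from -1.04 to -0.63. The 6 h value was -0.13 within replicates 1 and 2 and -0.999 within replicates 3 and 4, neither called, and their difference was not called either (edgeR interaction, adjusted p = 0.886).

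Loop7009 lay inside this interval, from a gene-free anchor at chr3:128690001-128700000 to chr3:128790001-128800000 in the body of RAB7A, 100 kb away. It had 56.5, 56.0, 56.5 and 48.9 normalized contacts at 0 h, 45.1, 47.7, 50.9 and 45.8 at 6 h, and 49.5, 45.2, 38.5 and 38.4 at 72 h. Replicate 1 of 72 h reached above the lowest 0 h library, and the other 3 lay below the 0 h range. The log2 fold change of -0.33 ± 0.14 (SE) at 72 h did not pass (edgeR adjusted p = 0.0609), and -0.21 ± 0.15 at 6 h did not either (adjusted p = 0.452). The 72 h value was called in 6 of 27 other settings: without the filter on low counts (adjusted p = 0.0294), and without 0 h replicate 4, 72 h replicate 1 or 6 h replicates 2, 3 or 4 (adjusted p from 0.036 to 0.050).

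**Figure D3:**
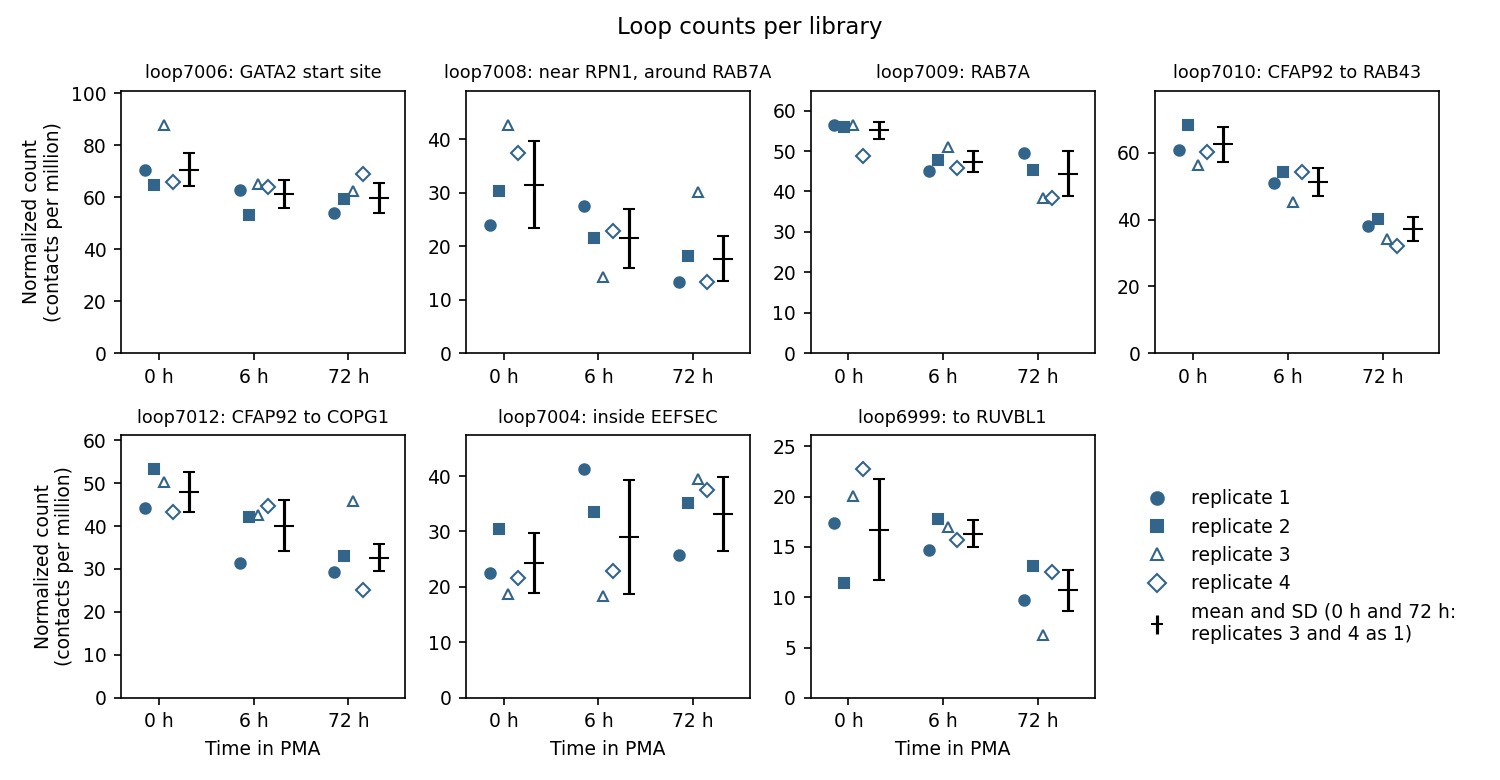
Normalized contact counts (scaled to 1000000 contacts in tested loops, y axis from 0) of the 7 loops given in full, at 0 h, 6 h and 72 h (x axis). Symbols are the 4 biological replicates, and bars give the mean and SD with replicates 3 and 4 counted as 1 sample at 0 h and 72 h; in loop7010 the 4 libraries of 72 h lie between 32.1 and 40.2, below all of 0 h and 6 h.

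Toward the other end of the stretch, 3 loops shared the anchor chr3:128970001-128980000 in CFAP92, and of these loop7010 and loop7012 fell at 72 h. The shortest, loop7010, reached over EFCC1 and GP9 to chr3:129090001-129100000 in RAB43, a small GTPase gene. It had 60.8, 68.4, 56.5 and 60.3 normalized contacts at 0 h, 51.0, 54.2, 45.3 and 54.3 at 6 h, and 38.0, 40.2, 34.3 and 32.1 at 72 h. No library of one time overlapped another time: all 4 of 6 h lay below 0 h and all 4 of 72 h below 6 h. Between 72 h and 0 h it was the one loop of the 13 whose libraries did not overlap, beside 28.3% of all tested loops. Its 72 h log2 fold change was -0.74 ± 0.15 (SE; edgeR adjusted p = 1.855e-05), and its 6 h value of -0.25 ± 0.14 was not called (adjusted p = 0.304). The 72 h fall was called in all 27 other settings, with values from -0.81 to -0.69.

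The 72 h against 6 h comparison asks what changed late, and loop7010 was its only call, 1 of 13 (7.69%, beside 20.5% of all tested loops, 9.81% falling). Its log2 fold change was -0.49 ± 0.16 (SE, edgeR adjusted p = 0.0152). Without 72 h replicate 4 it was -0.44 and just missed (adjusted p = 0.0524), and with DESeq2 it was not called (adjusted p = 0.0736). It was not called within replicates 1 and 2 (-0.42, edgeR adjusted p = 0.188) or within 3 and 4 (-0.57, adjusted p = 0.103), where loop7004 was called instead, as higher at 72 h than at 6 h. Besides loop7010, loop6999 was lower in all libraries of 72 h than in any of 6 h, which makes 2 of 13, beside 19.8% of all tested loops. The median log2 fold change of the 13 between 72 h and 6 h was -0.24, beside 0.00 over all tested loops.

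Loop7011, from the same CFAP92 anchor to chr3:129150001-129160000 in the splicing factor gene ISY1, gave no call. It had 26.8, 32.3, 36.4 and 19.3 normalized contacts at 0 h, 35.3, 26.2, 31.1 and 35.0 at 6 h, and 30.1, 38.1, 30.2 and 28.6 at 72 h, with a log2 fold change at 72 h of 0.14 ± 0.18 (95% interval -0.21 to 0.49, edgeR adjusted p = 0.567). Loop7012, the longest of the fan, reached chr3:129240001-129250000, which holds the start of COPG1, a subunit of the coatomer of transport vesicles. It had 44.2, 53.2, 50.2 and 43.2 at 0 h, 31.4, 42.1, 42.5 and 44.6 at 6 h, and 29.2, 33.1, 45.8 and 25.0 at 72 h. Replicate 3 of 72 h lay within the 0 h range and the other 3 below it. At 72 h the log2 fold change of loop7012 was -0.51 ± 0.16 (SE; edgeR adjusted p = 0.00843), and -0.24 ± 0.16 at 6 h (adjusted p = 0.396). The 72 h call was lost without 72 h replicate 4 (-0.40, adjusted p = 0.0625), with DESeq2 (adjusted p = 0.0523) and within replicates 3 and 4 (-0.41, adjusted p = 0.208).

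The fan can be read as ratios, in which a change common to both loops of a pair cancels. The log2 ratio of loop7010 to loop7011 averaged 1.13 at 0 h, 0.69 at 6 h and 0.19 at 72 h, and its libraries spanned 0.63 to 1.64 at 0 h and 0.07 to 0.34 at 72 h, without overlap. The difference of -0.94 gave p = 0.0286 in a two-sided exact permutation test of 4 against 4 libraries, the smallest such a test can give, and 0.228 after Benjamini-Hochberg adjustment over the 8 pairs of loops that share an anchor. With replicates 3 and 4 counted as 1, p was 0.1, the smallest for 3 against 3. The ratio of loop7011 to loop7012 moved by 0.73 (exact permutation p = 0.0571, adjusted 0.228), and that of loop7010 to loop7012 by -0.22 (p = 0.457, adjusted 0.731). None of the 8 differences passed after adjustment, and these tests were chosen after the values had been seen.

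**Figure D4:**
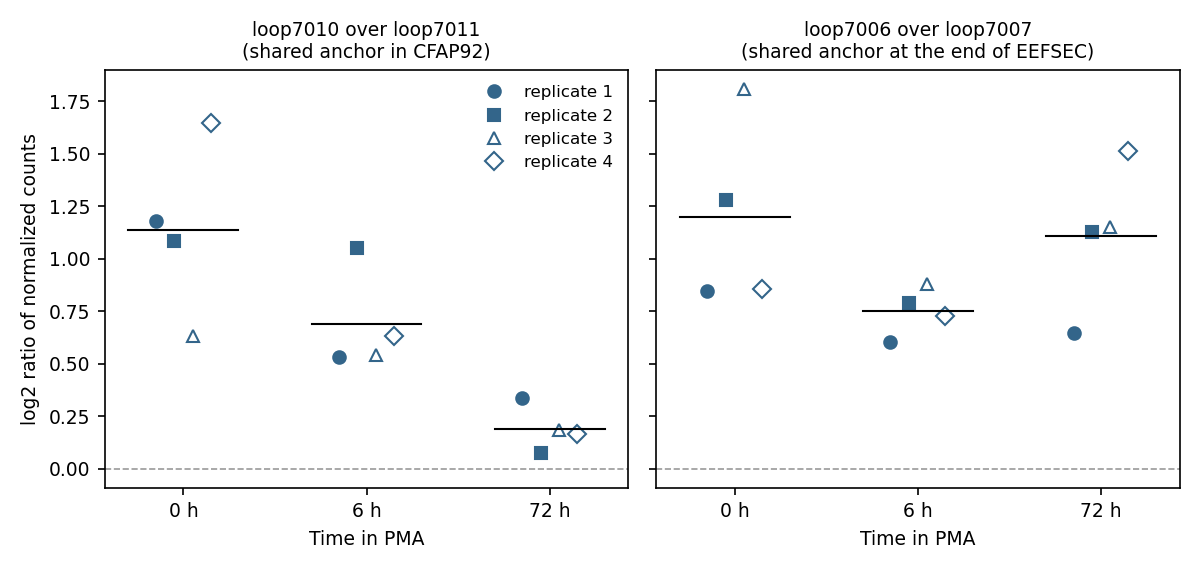
Log2 ratio of normalized counts (y axis) of 2 pairs of loops that share an anchor, per library at 0 h, 6 h and 72 h (x axis), with the mean of the 4 libraries as a line. On the left the ratio of loop7010 to loop7011 runs from a mean of 1.13 to 0.19, and on the right the ratio of the GATA2 loop to loop7007 has means of 1.20, 0.75 and 1.11.

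At the RUVBL1 end, loop6999 fell. It joined chr3:127860001-127870000, in the long noncoding RNA LOC107986129, to chr3:128130001-128140000 in RUVBL1. It had 17.4, 11.4, 20.1 and 22.7 normalized contacts at 0 h, 14.7, 17.8, 17.0 and 15.7 at 6 h, and 9.73, 13.1, 6.24 and 12.5 at 72 h. The raw counts behind these were 6 to 24 per library, and replicate 2 of 0 h lay among the 72 h values. At 72 h the log2 fold change was -0.65 ± 0.24 (SE; edgeR adjusted p = 0.0290), and at 6 h it was -0.10 ± 0.23 (adjusted p = 0.868). The 72 h call was lost without any 1 of 5 libraries (0 h replicates 1, 3 or 4 and 72 h replicates 1 or 3, adjusted p from 0.0549 to 0.111), with DESeq2 (adjusted p = 0.0951) and within replicates 1 and 2 (-0.35, adjusted p = 0.496). Loop6995, which ends on the same anchor, had a log2 fold change of -0.45 ± 0.28 at 72 h (adjusted p = 0.212), and loop7000 had -0.22 ± 0.14 (adjusted p = 0.213). At 72 h loop7000 was called as a fall by edgeR within replicates 3 and 4 and without 0 h replicate 2. The loop of chromosome 3 nearest outside the stretch on this side, loop6994, had 0.33 (adjusted p = 0.228), and the nearest on the other side, loop7013, which ends on the COPG1 anchor of loop7012, had -0.21 (adjusted p = 0.366).

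In the authors' deposited table, loop7010 was the only 1 of the 15 classed as lost, and the other 14 were classed as static. Over the authors' deposited table as a whole, 1.48% of loops were classed as lost and 2.95% as gained. The authors' deposited table gives loop7010 a log2 fold change of -0.63 at 72 h and -0.06 at 6 h, with an adjusted p of 0.0187. The deposited adjusted p of a loop is the same for 6 h and 72 h. It was read as a test over the time points together, unlike the edgeR tests of 1 comparison used here. For the GATA2 loop the authors' deposited table gives -0.14 at 72 h. For loop7008, the other loop called at 72 h in every setting here, it gives -0.56 at 72 h, with an adjusted p of 0.123 over the time points. For loop6995, loop6999, loop7001, loop7003 and loop7005 the authors' deposited table holds no fold change.

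GATA2 acts with a group of partners in blood cells, so loops ending on genes of 18 such partners were read in the same fit (GATA1, TAL1, LYL1, LMO2, LDB1, TCF3, RUNX1, CBFB, FLI1, ERG, ZFPM1, CBFA2T3, NFE2, KLF1, MYB, SPI1, CEBPA and KIT). An end of 11 of the 18 genes lay in an anchor of a tested loop, 17 loops in all. At 6 h 4 of these 17 fell and 0 rose (23.5%, beside 6.41% of all tested loops, 4.07% falling), and their median log2 fold change was -0.22. They were loop14993 and loop14998 at MYB, a progenitor transcription factor, loop30701 at LYL1, a helix-loop-helix factor, and loop21810 at SPI1, the myeloid factor PU.1. At 72 h 7 of the 17 fell and 1 rose (47.1%, beside 33.6%), with a median of -0.23. The one that rose was loop32230 at ERG, an ETS factor, by 1.45 ± 0.21 (SE) on the log2 scale (edgeR adjusted p = 8.439e-09). Those that fell at 72 h were at MYB (loop14993 by 0.84 and loop14998 by 0.70), LYL1 (loop30701 by 0.52), the erythroid factor gene KLF1 (loop30700 by 0.41), SPI1 (loop21810 by 0.38), ZFPM1, which encodes the GATA cofactor FOG1 (loop29148 by 0.28), and LMO2, a bridging protein of GATA complexes (loop21673 by 0.23), each on the log2 scale. Of these called loops, those at ERG, MYB and LYL1 were called at 72 h in all 27 other settings. Those at KLF1 and SPI1 were called in 26 each and that at ZFPM1 in 18. ERG, MYB, LYL1 and SPI1 each had another loop among the 17 that was not called at 72 h. Loop32225 at ERG had 0.19 (edgeR adjusted p = 0.475) and loop30704 at LYL1 had 0.06 (adjusted p = 0.721). Loop14996 at MYB had -0.26 (edgeR adjusted p = 0.177) and loop21804 at SPI1 had -0.42 (adjusted p = 0.212). The LMO2 loop, just past the threshold (edgeR adjusted p = 0.0494), lost its call in 16 of 27, among them DESeq2, replicates 3 and 4 summed at every time, and without 0 h replicate 1, 2 or 3 or 72 h replicate 2, 3 or 4; the ZFPM1 loop lost it in 9 of 27, with DESeq2 and without 0 h replicate 1 or 72 h replicate 4 among them. Without 0 h replicate 1, 0 of the 17 passed at 6 h, where the share over all tested loops also fell, from 6.41% to 2.86%. The GATA2 loop, with -0.23 at 6 h and -0.22 at 72 h and no call, lay close to the median of these partner loops. Over all tested loops the median was 0.01 at both times. In an edgeR fit with an offset for loop length, the GATA2 loop had -0.12 at 6 h and -0.11 at 72 h, again uncalled. That fit called 3 of the 17 partner loops at 6 h, beside 4.15% of all tested loops. For 72 h it called 6, of which 4 fell and 2 rose, beside 29.6%. All these comparisons share their 0 h libraries.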

How the data were processed

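In situ Hi-C contacts of K562 cells at 0 h, 6 h and 72 h of PMA were read from 1 table. Raw counts per loop, log2 fold changes, adjusted p-values and a class were deposited by the authors, per the file headers. The submitters' processing notes name hg38, Juicer 1.5.6, DESeq2 and DESeq without roles; how loops were called and the log2 values made is not given in the sources used here. Anchor positions, another kind of deposited value, are counted here from 1. Technical replicates were summed into 12 libraries and fitted together with edgeR 4.0.16 in R 4.3.3 (filterByExpr minimum count 10, minimum total 15, TMM, quasi-likelihood test, prior count 2, Benjamini-Hochberg over 24132 loops; called means an adjusted p under 0.05), tested on simulated data. Replicates 3 and 4 stay separate libraries in the fits. Whether they are independent samples is not stated, and if they are not, the p-values of the fits are too small. SEs are the log2 fold change over the root of F. DESeq2 1.42.0 and other settings were alternatives. Genes and sequences come from RefSeq tables of GRCh38.p14; partner genes count with an end in an anchor, and a loop listed again with its anchors reversed was counted once. Given in full are loops called in any comparison, those within 10 kb of GATA2, RPN1 or RAB7A and the highest mean. Of partner loops, the called ones are given, with the uncalled ones at ERG, MYB, LYL1 and SPI1. Members, lists and tests were chosen with earlier results of these data known.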

Additional observations from a re-analysis of the deposited data

Results flagged for a closer look

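Loop7010, from CFAP92 over GP9 to RAB43, changed more at 72 h than at 6 h: the difference between these changes, which equals the 72 h against 6 h contrast, was -0.49 on the log2 scale (edgeR adjusted p = 0.0152), and it was lower in all 4 libraries of 72 h than in any of 6 h. A look at the 6 h values of the 13 tested loops for 1 library far from the other 3 (Dixon's 95% limit) found 0, where chance gives 0.65. The 0 h and 72 h groups count as 3 samples and were not examined in this way.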

How the results depend on the processing

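Calls at 6 h stayed at 0 in every alternative run, where 0.916% to 8.46% of all loops were called. Between 5 and 15 loops of the locus were tested in these runs (5 with DESeq2, whose filter left the others without an adjusted p). Shares this low leave few or no calls to expect among so few loops. The GATA2 loop stayed uncalled in all of these runs. The share of contacts held by the locus changed by -17.3% to -13.01% between 0 h and 72 h in those run for it. At 72 h the count of 5 became 2 with DESeq2, with or without independent filtering (20.6% of all loops). It became 3 within replicates 1 and 2 (19.7% of all) and 3 at an adjusted p under 0.01 (21.6% of all). In the main fit it was 2 of 8 where both anchors had to lie in the stretch (33.6% of all). Leaving out 1 library gave 3 to 6 (26.4% to 34.5% of all). It gave 3 without 0 h replicate 1 (26.4% of all) or 3 (29.8%) or 72 h replicate 3 (29.9%) or 4 (29.3%). The single call between 72 h and 6 h became 0 with DESeq2 (8.57% of all, and 8.2% without independent filtering). It also became 0 within replicates 1 and 2 (9.53% of all) and at an adjusted p under 0.01 (10% of all). Within replicates 3 and 4 it was another loop (loop7004, rising, 7.27% of all). When 1 library was left out it was 0 to 1 (14.9% to 20.7% of all), with 0 without 72 h replicate 4 (17.3%). Of the partner loops, the 4 called at 6 h became 2 with DESeq2 (4.53% of all) and 1 without independent filtering (1.41% of all). They became 2 within replicates 1 and 2 (2.09% of all) and 0 within replicates 3 and 4 (0.916% of all). Without 1 library they were 0 to 5 (2.86% to 6.31% of all), with 0 without 0 h replicate 1 (2.86%). The 8 partner loops called at 72 h became 5 within replicates 3 and 4 (17.1% of all) and 6 to 9 without 1 library (26.4% to 34.5% of all). They became 20 of 38 where a gene end within 10 kb of an anchor counted (33.6% of all). Loop6999 at 6 h, not called, turned from -0.10 to 0.12 within replicates 1 and 2, and ran from -0.26 to 0.0094 without 1 library, above 0 without 0 h replicate 4 alone. The cause of these shifts was not tested. A replicate block left 0, 5 and 1 calls at the locus in the 3 comparisons, beside 8.03%, 35.5% and 22.7% of all loops. The block moved the calls of the whole table at 6 h from 1546 to 1938. Same-numbered libraries correlated weakly (0.0128 to 0.122) and the same number was the best match in 9 of 12 cases, a hint from the data; the labels do not say that the numbers pair the samples, so the block was not used. Summing replicates 3 and 4 at every time point was an alternative added after seeing the data. It left 0, 5 and 1 calls at the locus in the 3 comparisons, beside 5.11%, 31.1% and 17.8% of all loops. Few contacts per loop limit these results, and loop7003 and loop7005 had too few for a test.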
